A study of Caenorhabditis elegans with 2 samples.

Results

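The UDP-glucuronosyltransferases are a large enzyme family of the nematode Caenorhabditis elegans whose genes carry the symbol ugt- and a number. Members were all probe sets of the array that the platform annotation assigns to exactly 1 gene with such a symbol. This gave 68 probe sets for 64 genes, out of 17118 genes read by probe sets naming a single gene. The rule itself uses no measured value. RefSeq lists 67 genes of that name, and ugt-34, ugt-49 and ugt-65 were not analysed here.

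The worms were of the N2 strain, wild type in genotype, kept on plates seeded with the bacterium OP50. Synchronized worms of the exposed group were put in the dark into S-medium, a liquid growth medium, with nanoparticles of anatase, a crystal form of titanium dioxide, at 500 µg/ml. The control group received none. The sources used here give neither the worms' age nor the exposure time. Each group has 1 array, and both arrays are labelled replicate 3, so no difference below has a replicate error, a test or a p-value.

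These enzymes sit in the membrane of the endoplasmic reticulum and attach a sugar taken from a UDP-sugar to small fat-soluble molecules, which makes them more soluble and easier to excrete. Vertebrate members mostly use glucuronic acid, whereas nematodes largely attach glucose. The reaction belongs to the second phase of detoxification, after oxidation by enzymes such as the cytochromes P450, and in worms much of it takes place in the intestine. The substrates of most nematode members are not known.

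The largest differences in the family were toward lower signal in exposed worms. The signals of ugt-2, ugt-22 and ugt-26 were at least 2-fold lower, as were those of the much dimmer ugt-56 and ugt-36. No member was 2-fold higher. Most of the family differed little: 42 of the 55 members that were bright enough to compare lay within 0.5 log2 units of equal signal, which is 76.4% of them against 81.2% of all genes compared.

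Differences are exposed minus control in log2(intensity + 16), where the added 16 damps the noise of dim genes and understates their folds. All counts past a fold are on this scale. A gene was compared if its brighter value lay at or above percentile 25 of that array's probe sets, an intensity of 31.1 for control or 25.2 for exposed worms. Of the 64 members 55 passed this filter. Among 13605 genes compared, 3.07% were at least 2-fold lower and 1.66% at least 2-fold higher in exposed worms. In the family 5 of 55 were lower by that much (9.09%) and 0 higher. Of these 5, ugt-56 and ugt-36 passed the filter on the control array alone, as did 339 of the 418 lower genes in the whole table, and a gene that passes that way lies below the limit of the exposed array by construction. With the filter set on the mean of both arrays, chosen after seeing the data, 12845 genes and again 55 members passed. There, 3 members were 2-fold lower (5.45%, all genes 1.36%), 0 were 2-fold higher (all genes 0.444%) and 37 were lower by any amount (67.3%, all genes 53.7%). With the filter on the brighter array, the family had 13 members at least 1.5-fold lower (23.6%) against 9.58% of all genes, and 0 higher against 4.69%. These 13 include ugt-56, ugt-36 and ugt-67, which passed the filter on the control array alone. The 1.5-fold count was not repeated with the filter on the mean of both arrays. ugt-63 became 1.5-fold higher under loess and quantile normalization. So did ugt-46 when its brightest probe set stood for the gene (0.85), while its other probe set was at −0.64. Under the same filter, lower by any amount were 37 of the 55 members (67.3%) against 53.2% of all genes. The family median was −0.16, with quartiles at −0.47 and 0.07, and the median of all genes compared was −0.02. Because whole worms were used, fewer cells that express a gene and less RNA per cell cannot be told apart.

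The scaling of the arrays bears on these shares. The share of lower members was 62.5% with each array centred on its median, 56.1% after an intensity-dependent loess correction and 57.9% after quantile normalization, against 45.7%, 49.3% and 48.8% of all genes. Over all genes the counts at least 2-fold higher and lower, 226 and 418 as deposited, became 253 and 361, 289 and 304, and 291 and 309 under these scalings. In the family the count of members 2-fold higher was 0 under each of them, and 5, 4 and 4 members were 2-fold lower.

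**Figure D1:**
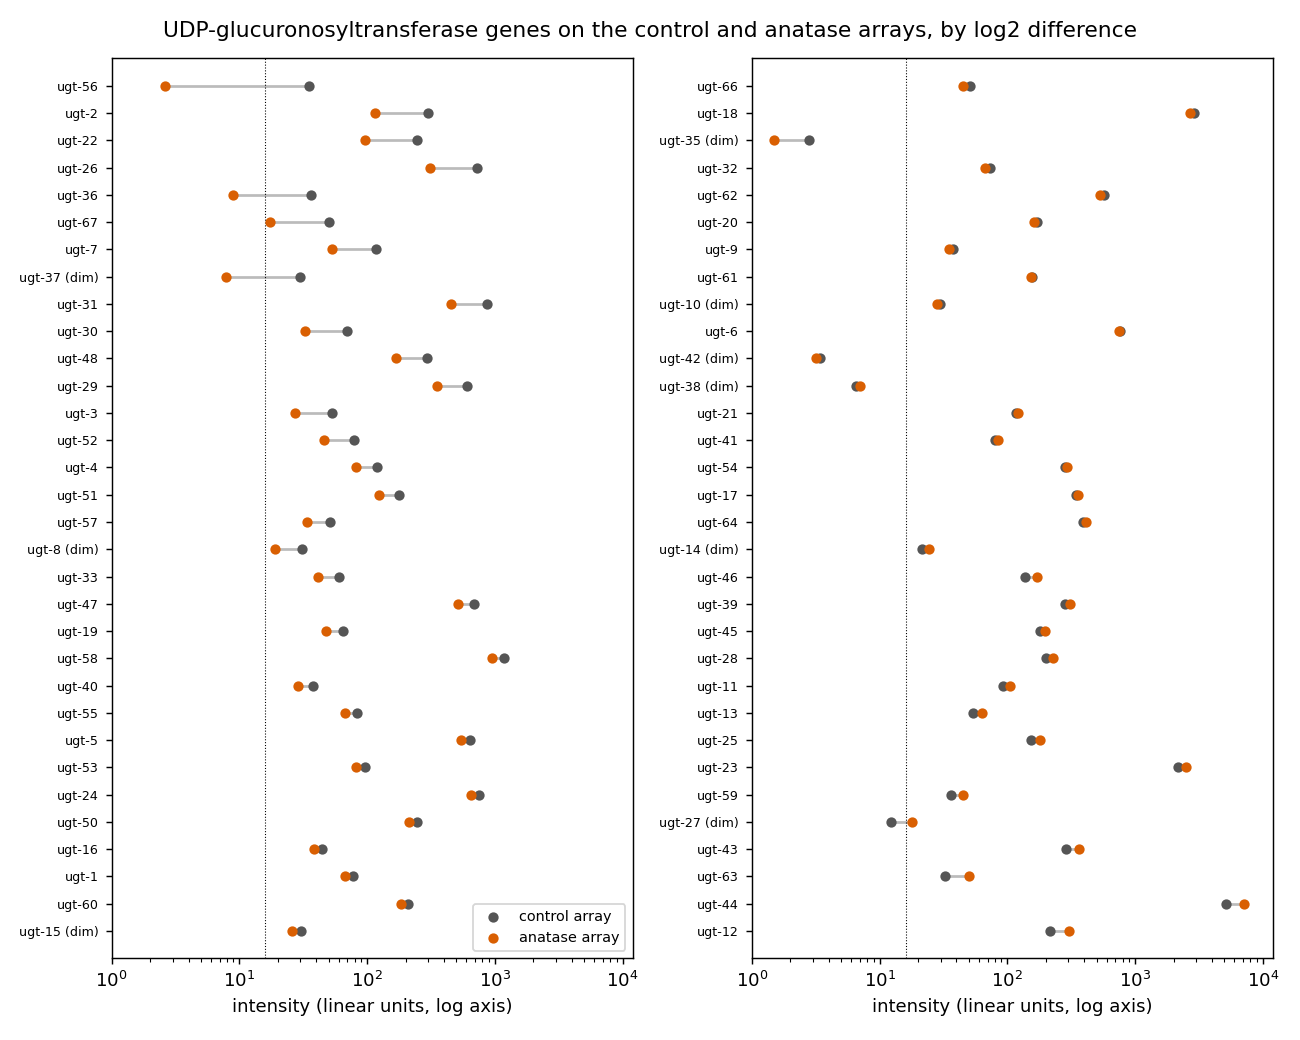
Intensity of each of the 64 genes on the control array (grey) and the exposed array (orange), on a log axis, ordered by the difference in log2(intensity + 16) from the most negative at the top left to the most positive at the bottom right; genes with several probe sets are drawn at their mean, the dotted line marks an intensity of 16, and "dim" marks genes that did not pass the brightness filter. The exposed point lies to the left of the control point for the genes at the top of the left panel, and gaps in the other direction at the bottom of the right panel are shorter.

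The 3 brighter of the 5 members past 2-fold were each read by 1 probe set of the type designed for a single gene. ugt-26 read 725 in control and 313 in exposed worms, a log2 difference of −1.17. For ugt-2 the intensities were 298 and 115, a difference of −1.26. Those of ugt-22 were 244 and 96.2, a difference of −1.21. In plain ratios these are 2.32-fold, 2.59-fold and 2.54-fold lower on the exposed array. A stricter filter, at the median of the probe sets in place of percentile 25, left 8811 genes. Of these, 0.613% were at least 2-fold lower and 0.284% at least 2-fold higher; of the 31 members among them the 3 named here were lower (9.68%) and 0 higher. With 3 genes that share rests on few values.

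A further probe set is assigned to ugt-22 and Y43D4A.2 together and so was no member. It read 75.4 in control and 71.7 in exposed worms, a difference of −0.06. The large difference of ugt-22 thus comes from 1 of the 2 probe sets that name it, and the mean of both would be −0.64. How far the shared probe set reads the other gene was not tested.

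The remaining members past 2-fold were dim. ugt-56 stood at 35.0 in control and 2.60 in exposed worms (−1.46), and ugt-36 at 36.1 and 8.90 (−1.07). These exposed values lie at percentiles 5.05 and 12.7 of the exposed array. Together with ugt-67, which went from 50.1 to 17.5 (−0.98), they are the 3 members that passed the brightness filter on the control array alone. No detection calls were used here, and whether the exposed values lay above background is unknown.

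Next came members between 1.5-fold and 2-fold lower on the scale with 16 added, among them some of the brighter ones. ugt-31 went from 875 to 455 (−0.92), ugt-7 from 118 to 53.3 (−0.96) and ugt-30 from 69.2 to 32.6 (−0.81). In plain ratios ugt-7 was 2.22-fold, ugt-30 2.12-fold and ugt-31 1.92-fold lower. ugt-29, read by a probe set of a type that can pick up related transcripts, went from 601 to 351 (−0.75). The differences of ugt-3 and ugt-52 were −0.67, from 53.2 to 27.5, and −0.63, from 79.3 to 45.6. ugt-48 also belongs here, with probe sets described below.

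**Figure D2:**
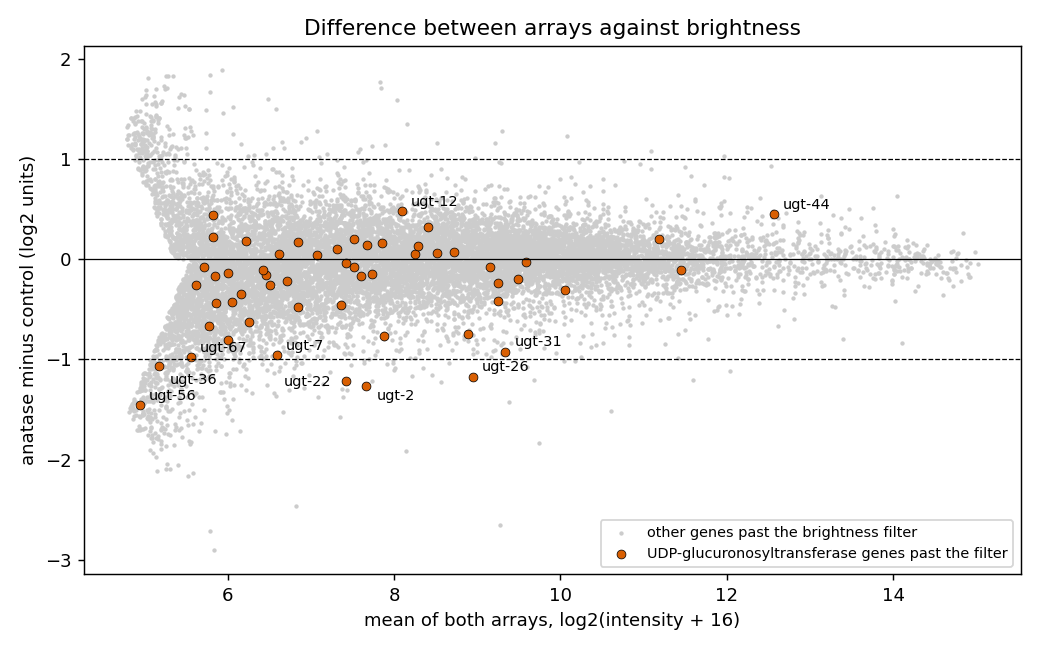
Difference between the arrays (exposed minus control, log2 units) against the mean of both arrays in log2(intensity + 16) for the 55 members (orange) and the other genes past the brightness filter (grey); dashed lines mark 2-fold. The members ugt-2, ugt-22 and ugt-26 lie below the lower line away from the wide cloud of dim genes at the left, ugt-56 and ugt-36 lie inside that cloud, and no member lies near the upper line.

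On the scale used and with the probe sets of a gene averaged, ugt-12 had the largest difference in the other direction. It was at 215 in control and 306 in exposed worms (0.48), read by a probe set of a type that can pick up related transcripts. Of the 2 probe sets of ugt-46, described below, 1 was higher by more (0.85) and the other was lower (−0.64). ugt-44 was at 5167 and 7072 (0.45), a ratio of 1.37, and its neighbour ugt-43 was at 288 and 365 (0.32). ugt-63 went from 32.7 to 50.2 (0.44) at low brightness, and its difference exceeded that of ugt-12 under loess and quantile normalization and with a pseudocount of 1. On the scale with 16 added and with the arrays as deposited, ugt-12, ugt-44, ugt-43 and ugt-63 stayed below 1.5-fold. ugt-63 had a plain ratio of 1.54 and was at 0.62 under both loess and quantile normalization and 0.60 with a pseudocount of 1, which is past 1.5-fold. Smaller positive differences were those of ugt-59 (36.5 and 45.1, 0.22), ugt-23 (2157 and 2488, 0.20), ugt-25 (154 and 180, 0.20) and ugt-13 (54.1 and 63.4, 0.18).

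The spread that these arrays allow to be seen is that between probe sets of 1 gene. Over 2293 genes with exactly 2 probe sets, the SD of a single probe set's difference was 0.32 log2 units. It was 0.51 in the dimmest of 4 equal brightness groups of the genes compared, 0.39 in the second, 0.24 in the third and 0.18 in the brightest. The values of ugt-2 and ugt-22 lie in the second group and that of ugt-26 in the third, and they are 3.21, 3.08 and 4.85 times the SD of their group. ugt-31, also in the third group, is at 3.81 times. These genes were named for the size of their differences, so large multiples are to be expected from the choice. For ugt-22 the multiple leaves out the probe set shared with Y43D4A.2, which was at −0.06. ugt-44 lies in the brightest group, and its difference is 2.51 times that SD. This spread is between probe sets on the same arrays, including types that can pick up related transcripts. It is thus not purely technical, and says nothing of how worms in separate cultures vary.

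Dim genes of any kind tended to lower values in exposed worms, and much of the family is dim. What part brightness had in the family's lower values was not tested. In the dimmest group 13 of 16 members were lower (81.2%) against 61.1% of all genes there, with medians of −0.39 and −0.19. The 13 include ugt-56, ugt-36 and ugt-67, which passed the filter on the control array alone. The second group held 20 members, 13 of them lower (65%, all genes 57.5%), with a median of −0.12 against −0.07. In the third group 8 of 14 were lower (57.1%, all genes 47.1%) and the medians were −0.14 and 0.02. The brightest group held 5 members, ugt-58, ugt-18, ugt-6, ugt-23 and ugt-44. 3 of these were lower (60%, all genes 46.9%), among them ugt-6 at −0.02, and the median was −0.02 against 0.01.

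In the brightest group the differences were small. ugt-18 was at 2891 in control and 2683 in exposed worms (−0.11), and ugt-58 was at 1170 and 943 (−0.31). ugt-6 was at 760 and 746, a difference of −0.02 that turned positive under median centring of both arrays. Next in brightness came ugt-24, at 751 and 653 (−0.20), then ugt-31 with the −0.92 given above, and ugt-47, at 690 and 513 (−0.42). Members with close values in the third group were ugt-62 (567 and 536, −0.08), ugt-64 (395 and 416, 0.07), ugt-17 (342 and 357, 0.06) and ugt-54 (283 and 294, 0.05). Brightness depends on the probes of a gene, so these levels give no order of expression among members.

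Only 3 members were read by more than 1 probe set. For ugt-48, both gave lower exposed values: 339 and 201 in one (−0.71), 248 and 134 in the other (−0.82). The 3 probe sets of ugt-50 gave −0.20, −0.20 and −0.12, from control intensities of 198, 468 and 68.5. The probe sets of ugt-46 went apart. They read almost the same in control worms, 136.9 and 137.9, but 260 and 83.0 in exposed worms, which are differences of 0.85 and −0.64. The gene mean of 0.11 therefore describes neither. Both probe sets of ugt-46 belong to a type that can pick up related transcripts.

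Probe sets of that type alone read 11 of the 64 members, and the other 53 had at least 1 probe set of the gene-specific type. The medians were −0.15 and −0.16 among those passing the filter, 11 and 44 genes. All 5 members past 2-fold were read by gene-specific probe sets, which also read 44 of the 55 members compared.

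Many ugt genes lie next to each other in the genome, and 36 of the 64 members fell into 12 runs, defined as ugt genes with no more than 2 other protein-coding genes between them in the RefSeq gene order of assembly WBcel235. The array names no build, so no coordinates are given. Members inside and outside runs had similar medians, −0.13 over 28 and −0.17 over 27 genes that passed the filter.

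Medians of single runs count all their measured members, also those that did not pass the filter. In several runs the large difference belonged to a single gene. The run of ugt-26, ugt-27, ugt-28 and ugt-25 had a median of 0.18. There, ugt-26 was at −1.17 while ugt-28 was at 0.16, from 202 to 228, and ugt-25 at 0.20. ugt-27 was at 0.26 and did not pass the filter. In the pair of ugt-1 and ugt-2, ugt-1 was at −0.16, from 77.1 to 67.6, against −1.26 for ugt-2. ugt-55 was at −0.26, from 83.7 to 67.4, beside ugt-56. In the run of ugt-39, ugt-41 and ugt-36, the first 2 were at 0.13 and 0.05 and ugt-36 at −1.07, with a median of 0.05. The neighbours of these 4 lower genes thus lay between −0.26 and 0.26. The 4 were picked for their size, so smaller differences beside them are to be expected: 76.4% of the members compared lay within 0.5 of 0. Of the 4, ugt-36 and ugt-56 passed the filter on the control array alone. ugt-40, ugt-37 and ugt-38 ranged from −0.95 to 0.03 with a median of −0.26, and ugt-40 was the member of this run that passed the filter.

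The longest run held 8 genes, in the order ugt-12, ugt-11, ugt-9, ugt-10, ugt-67, ugt-8, ugt-14 and ugt-13, with differences from −0.98 (ugt-67) to 0.48 (ugt-12) and a median of 0.03. 4 were lower and 4 higher, and 5 passed the filter. Over these 5 the median was 0.17, with 2 lower. ugt-11 was at 0.17, from 92.0 to 106, and ugt-9 at −0.07, from 37.9 to 35.2, which turned positive under 2 of the 3 scalings. Some runs read 1 way throughout. All 4 genes of the run of ugt-5, ugt-4, ugt-6 and ugt-3 were lower, from −0.67 to −0.02 with a median of −0.36. ugt-4 went from 120 to 81.3 (−0.48) and ugt-5 from 643 to 544 (−0.23). ugt-18, ugt-16 and ugt-15 were lower by small amounts, from −0.17 to −0.11 with a median of −0.14. ugt-16, which is known to respond to the anthelmintic albendazole, was at 44.7 and 38.1 (−0.17), and turned positive under 2 of the 3 scalings, as did ugt-15. ugt-43 and ugt-44 were both higher.

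The 9 members that did not pass the filter were ugt-37, ugt-8, ugt-15, ugt-35, ugt-10, ugt-42, ugt-38, ugt-14 and ugt-27. The brightest of them, ugt-8, was at 30.8 in control and 18.9 in exposed worms, just outside the limit, and ugt-56, at 35.0 in controls, was just inside. ugt-37 was at 30 and 7.80, a difference of −0.95. ugt-35, ugt-42 and ugt-38 lay below an intensity of 16 on both arrays. Counted with these, 43 of all 64 members were lower (67.2%) and 5 were at least 2-fold lower (7.81%), against 54.7% and 3.48% of all 17118 genes. 0 were 2-fold higher, against 1.58%.

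The signs of 6 members that passed the filter turned from lower to higher in at least 1 of the 3 scalings: ugt-16, ugt-66, ugt-32, ugt-9, ugt-61 and ugt-6. Their differences reached at most 0.17 in size. The other 31 lower members and all 18 higher members kept their sign under the 3 scalings. Members not named so far that passed the filter lay between −0.46 (ugt-51) and 0.14 (ugt-45).

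**Figure D3:**
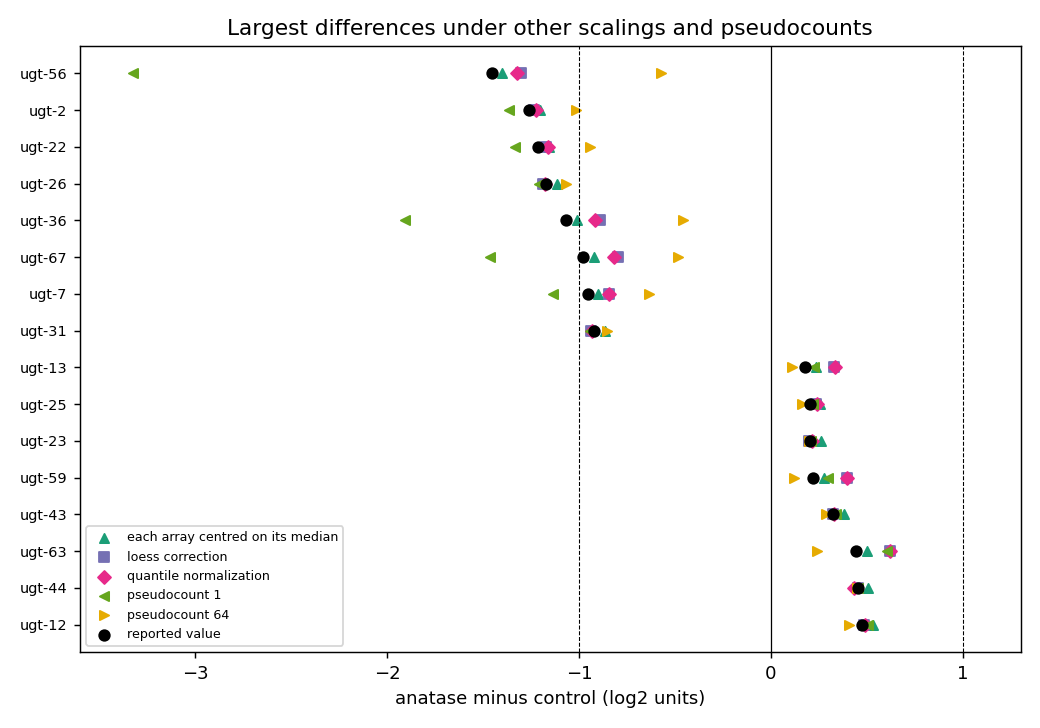
The 8 most negative and 8 most positive differences among members that passed the brightness filter (exposed minus control, log2 units), as reported (black) and under 3 scalings and 2 pseudocounts (coloured marks); dashed lines mark 2-fold. The marks of ugt-26, ugt-2 and ugt-31 lie close together, whereas those of the dim ugt-56 and ugt-36 spread from −3.32 to −0.57 and from −1.91 to −0.46 with the pseudocount.

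Partner genes of the family were also read. Genes that make, carry or use UDP-sugars, the sugar donors of these enzymes, showed no 2-fold difference. Of 24 genes listed 18 passed the filter, and of these 12 were higher and 6 lower, with a median of 0.09. Among all genes compared 53.2% were lower, with a median of −0.02, and 3.07% were at least 2-fold lower and 1.66% at least 2-fold higher. No direction count of this or the following lists was tested. sqv-4, the UDP-glucose dehydrogenase that makes UDP-glucuronic acid, was at 2758 and 3070 (0.15). sqv-1, which converts UDP-glucuronic acid to UDP-xylose, was at 1512 and 1813 (0.26), and sqv-7, a carrier of UDP-sugars into the Golgi, at −0.01. The largest differences were 0.67 for nstp-3, from 34.6 to 64.5, and 0.42 for nstp-1, both nucleotide sugar transporter genes, and −0.32 for D1005.2.

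Of 23 listed regulators of xenobiotic responses 20 passed the filter, and 14 were lower and 6 higher, with a median of −0.18 and none past 2-fold. Among all genes compared 53.2% were lower, with a median of −0.02. The nuclear hormone receptor gene nhr-114 was at 180 and 88.4 (−0.91), and elt-2, a GATA factor that controls intestinal genes, at −0.71 and −0.48 in its 2 probe sets. nhr-176, a receptor tied to the response to thiabendazole in worms, was at −0.58. skn-1, the worm relative of the mammalian Nrf factors that switch on conjugating enzymes, was the highest at 0.51, but its 3 probe sets gave 0.14, 0.97 and 0.43, the largest of these from an intensity of 27.8. sek-1, a kinase of the p38 pathway upstream of skn-1, was at 0.24.

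Among 50 other conjugating, reducing and oxidizing enzymes that passed, of 60 listed, 27 were lower and 23 higher, with a median of −0.04 (all genes 53.2% lower, −0.02). 1 was past 2-fold, the epoxide hydrolase gene ephx-1, which went from 52.4 to 4.60 (−1.73) and so ended near the bottom of the array. Its exposed value lay below the limit of 25.2, so it passed the filter on the control array alone. Of all genes compared, 3.07% were at least 2-fold lower and 1.66% at least 2-fold higher. dhs-16 was at −0.68, and the short-chain dehydrogenase gene dhs-7 and the flavin monooxygenase gene fmo-2 were at 0.72 and 0.71. The cytochrome P450 family had 5 of 54 members at least 2-fold lower (9.26%) and 0 higher, the same count as the ugt genes. How many of these P450 genes passed the filter on the control array alone was not counted. 28 of those 54 were lower by any amount (51.9%). Of 35 glutathione S-transferases, 0 were past 2-fold in either direction and 20 were lower (57.1%). None of these differences between families was tested.

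Markers of the intestine were measured beside these values. The background of all genes compared is again 53.2% lower, with a median of −0.02. Of 15 intestinal markers 10 were lower and 5 higher on the exposed array, with a median of −0.19, and their summed intensity was 73000.4 in control and 66198 in exposed worms. The largest control intensities in that sum were those of asp-1 (26961.5), cpr-1 (17073) and vit-2 (12715.4). Their differences were −0.14, −0.10 and 0.02. The metallothionein gene mtl-2, with no gene-specific probe set, was the lowest at −2.65, followed by the peptide transporter gene pept-1 at −0.90. pho-1 and fat-7 came next at −0.71 and −0.61. elt-2 and elt-7 are in this list as well as among the regulators. elt-7, act-5 and vha-6 were at −0.33, −0.32 and −0.19, and ges-1 and ifb-2, also made in the intestine, at 0.16 and 0.12. No intestinal marker was at 0 on either array, and end-3, an early embryonic gene, was the only one below 16, at 13.1 in control against 42.9 in exposed worms (1.02). Markers of the hypodermis (5 of 6 lower, median −0.19, summed 10892 and 9932) and the excretory cell (3 of 4 lower, −0.12, 4898 and 4034) were mostly lower. The excretory markers differed among themselves. aqp-8 went from 2433.5 to 1333.5 (−0.86), and exc-4 and clh-3 were at −0.17 and −0.08. vha-8 was higher, from 2309.8 to 2560.3 (0.15). Those of body wall muscle (2 of 5 lower, 0.05, 15719 and 16219), neurons (0 of 5 lower, 0.21, 3982 and 3896) and germline (1 of 5 lower, 0.06, 6562 and 6722) had medians above 0. For neurons the direction depended on the measure. snb-1, unc-104 and egl-3, each read by 2 probe sets, had lower mean intensities on the exposed array. Their mean log2 differences were 0.01, 0.07 and 0.22. unc-119 and rab-3 were higher on both measures. What part tissue content had in the ugt values was not tested.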

How the data were processed

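Total RNA of whole worms (Trizol) was labelled with biotin for Affymetrix arrays, per the labels' protocols. The authors deposited a linear intensity for each of 22548 probe sets on each array. Transcriptome Analysis Console is named per the submitters' processing notes (version, summary method and scaling not given in the sources used here). Median intensities were 123.1 (control) and 117.8 (exposed). Precision is limited by the number of arrays.

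Probe sets naming several genes (887) or none here (895) were left out. All 68 ugt probe sets matched RefSeq gene numbers with equal symbols. A gene is the mean log2(intensity + 16) of its probe sets. Thresholds are 2-fold and 1.5-fold. Probe set types ending in _s_at or _x_at were taken as able to pick up related transcripts. Named members are those past 2-fold, the 8 largest differences in each direction, the 8 brightest, those with several probe sets, 16 fixed by name, and runs with at least 3 measured members; list genes are the 2 largest in each direction, and sqv genes, nhr-176 and some markers were chosen with values seen. Members and lists were chosen with earlier results of these data known. Grouping by protein sequence was not run and no sequence is shown. Calculations were tested on simulated data. Python 3.11.15 ran pandas 2.3.3, statsmodels 0.14.6 (loess), numpy 2.4.6, matplotlib 3.10.9 and scipy 1.17.1.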

Additional observations from a re-analysis of the deposited data

How the results depend on the processing

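No paired analysis was possible because there is a single array per group. Counts of ugt genes at least 2-fold lower were 3 under the filter set at the median, 3 with the filter on the mean of both arrays (added after seeing the data), 8 and 2 with pseudocounts of 1 and 64, and 13 and 0 at thresholds of 1.5-fold and 3-fold. The counts over all genes, higher and lower, were 25 and 54, 57 and 175, 423 and 803, 12 and 24, 638 and 1303, and 23 and 76 under these settings in the same order. The count of ugt genes past the threshold on the higher side was 0 in each of these settings and under the other single changes of scaling, filter or probe sets tried. When 1.5-fold was combined with loess, quantile normalization or a pseudocount of 1, which was also added later, ugt-63 passed it. With the brightest probe set of each gene, ugt-46 was at 0.85, which is past 1.5-fold as well. ugt-2 and ugt-26 were past 2-fold in each alternative run on them that kept this threshold, with ranges of −1.37 to −1.02 and −1.21 to −1.07, and ugt-22 in each but the pseudocount of 64 (−0.94) and the added probe set given below. ugt-56 and ugt-36 passed neither the stricter filter nor that on the mean of both arrays. Their values, which no filter changes, were otherwise past 2-fold except at −0.57 for ugt-56 with a pseudocount of 64, and for ugt-36 at −0.89 with loess, −0.91 with quantile normalization and −0.46 with a pseudocount of 64. The family median ranged from −0.19 (pseudocount of 1) to −0.07 (quantile normalization) and kept its sign. Averaging ugt-22 with its probe set shared with Y43D4A.2, an alternative chosen after seeing the data, gave −0.64. The cause of these changes was not tested beyond the construction of the filter, pseudocounts and thresholds. Dim signal limits what can be read for the 9 members below the filter, and the age of the platform annotation limits the naming.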
